A study of Homo sapiens with 6 samples.

Results

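The snoRNA host transcripts examined here are 10 spliced noncoding RNAs, namely GAS5, SNHG1, SNHG5, SNHG6, SNHG7, SNHG8, SNHG12, SNHG15, ZFAS1 and EPB41L4A-AS1. They were chosen by name, as the rows of the expression table whose gene symbol equals one of these names, and each name had a single row among the 57150 genes of the table. The labels describe RNA-seq of K562 cells, a human erythroleukemia line. Levels of the targeted genes and of most erythroid and hematopoietic markers in the table, given below, go against the labelled knockdown and cell line. By the labels, 3 pools of cells were transfected with siRNAs that co-target αCP1 and αCP2, and 3 further pools were transfected with control siRNAs. All were harvested 72 h after transfection, and no allele or other treatment distinguishes the groups. By the study's methods, the αCP1/2 group used a pair of distinct siRNAs over its pools, and some of the control siRNAs target an unrelated mRNA, GLD-2. αCP1 and αCP2, encoded by PCBP1 and PCBP2, are KH-domain proteins that bind C-rich RNA and that were studied here as regulators of cassette exon splicing. Each gene has 1 FPKM (fragments per kilobase of transcript, scaled to the number of mapped fragments) and 1 estimated count per group, in columns that the table labels KD and CTRL. The libraries of a group are not separated in these columns, so the values used give no spread between replicates and no test was run. Deposited p-values and FDRs were not used. All intervals given treat the estimated counts as raw fragment counts and cover counting error only. If the counts were averaged or scaled over libraries, the intervals do not measure that error. In bulk samples, fewer cells of a type and less RNA per cell cannot be told apart.

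Most small nucleolar RNAs (snoRNAs) of human cells lie in the introns of other genes, and they are released from the intron after splicing. Box C/D snoRNAs guide 2′-O-methylation and box H/ACA snoRNAs guide pseudouridylation, chiefly of ribosomal RNA. In the hosts described here the spliced exons encode no conserved protein. Short open reading frames bring the spliced RNA to ribosomes, and nonsense-mediated decay (NMD), which removes RNAs with an early stop codon, keeps the level of several of them low. Many hosts belong to the class whose 5′ end is a terminal oligopyrimidine (TOP) tract, the feature shared by ribosomal protein mRNAs. Levels of TOP hosts therefore join splicing, translation and decay, and GAS5 was first known for its accumulation in growth-arrested cells.

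The annotated starts of the host transcripts are described here. RefSeq sequences around the start were available for 8 of the 10 members, and SNHG6 and SNHG15 had no entry. They are given 5′ to 3′ on the strand of the gene, with 40 bases before the start and 30 from it, and each matched GRCh37, the build of the table (hg19), at 1 position. Capitals mark TATA before the start and, from the start on, an unbroken run of C or T that begins with C.
GAS5 (chr1:173838154-173838223, minus strand): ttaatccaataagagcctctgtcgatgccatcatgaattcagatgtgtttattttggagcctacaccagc
SNHG1 (chr11:62623328-62623397, minus strand): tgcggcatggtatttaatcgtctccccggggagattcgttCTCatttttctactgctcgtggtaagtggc
SNHG5 (chr6:86388422-86388491, minus strand): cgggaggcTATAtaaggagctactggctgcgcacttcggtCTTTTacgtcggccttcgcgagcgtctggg
SNHG7 (chr9:139622607-139622676, minus strand): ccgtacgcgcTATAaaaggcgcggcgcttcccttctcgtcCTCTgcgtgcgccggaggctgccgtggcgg
SNHG8 (chr4:119199877-119199946, plus strand): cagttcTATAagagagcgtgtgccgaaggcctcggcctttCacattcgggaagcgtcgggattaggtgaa
SNHG12 (chr1:28908356-28908425, minus strand): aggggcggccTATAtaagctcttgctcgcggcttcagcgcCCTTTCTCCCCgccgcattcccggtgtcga
ZFAS1 (chr20:47895139-47895208, plus strand): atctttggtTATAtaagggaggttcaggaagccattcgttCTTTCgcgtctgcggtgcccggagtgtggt
EPB41L4A-AS1 (chr5:111496183-111496252, plus strand): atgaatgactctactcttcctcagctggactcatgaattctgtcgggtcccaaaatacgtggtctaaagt

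The first base was C in 6 of the 8 starts, against 14.7% of the 35116 RefSeq starts. A C followed by at least 4 bases that are each C or T was found in 3 of the 8, against 4.1% of all starts, and the run was longest in SNHG12 with 11 bases. SNHG5 and ZFAS1 each had a run of 5 bases, SNHG7 a run of 4 and SNHG1 a run of 3. TATA on the sense strand, within the 40 bases before the start, was present in 5 of the 8, in SNHG5, SNHG7, SNHG8, SNHG12 and ZFAS1, against 7.4% of all starts. Its first base lay 30 to 34 bases before the start. These motifs were chosen with the sequences in view and are descriptions of annotated starts. The RefSeq start of GAS5 lies upstream of the GENCODE gene, and the absence of a motif there concerns this window only.

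The cargo of the introns differs between hosts, and the snoRNAs printed show both box classes and a host with several related ones. ZFAS1 (ENSG00000177410, chr20:47894715-47916137, plus strand) carries 3 box C/D snoRNAs, SNORD12C, SNORD12B and SNORD12, in introns 1, 2 and 3 of its canonical transcript. SNORD78 lies in intron 6 of GAS5 (ENSG00000234741, chr1:173827697-173838020, minus strand). SNORD99 lies in intron 5 of SNHG12 (ENSG00000197989, chr1:28905050-28909644, minus strand). SNORA13, a box H/ACA snoRNA, lies in intron 1 of EPB41L4A-AS1 (ENSG00000224032, chr5:111496223-111500515, plus strand). In other annotated transcripts of the same gene, SNORD12, SNORD12B, SNORD78 and SNORA13 each overlap an exon in 1 transcript. Capitals mark TGATGA (box C) within the first 20 bases and CTGA (box D) within the last 20 in box C/D snoRNAs, and ACA within the last 8 bases in SNORA13.
SNORD12C (chr20:47895477-47895565, plus strand): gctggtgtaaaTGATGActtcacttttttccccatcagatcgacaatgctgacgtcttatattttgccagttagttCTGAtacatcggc
SNORD12B (chr20:47896856-47896946, plus strand): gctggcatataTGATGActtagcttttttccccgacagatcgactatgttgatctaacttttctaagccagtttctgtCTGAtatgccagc
SNORD12 (chr20:47897220-47897309, plus strand): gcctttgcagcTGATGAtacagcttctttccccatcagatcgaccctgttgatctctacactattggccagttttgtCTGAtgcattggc
SNORD78 (chr1:173834760-173834824, minus strand): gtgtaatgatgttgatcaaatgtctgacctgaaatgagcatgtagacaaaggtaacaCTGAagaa
SNORD99 (chr1:28905261-28905334, minus strand): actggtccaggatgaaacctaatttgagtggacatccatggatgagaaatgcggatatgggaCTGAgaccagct
SNORA13 (chr5:111497182-111497314, plus strand): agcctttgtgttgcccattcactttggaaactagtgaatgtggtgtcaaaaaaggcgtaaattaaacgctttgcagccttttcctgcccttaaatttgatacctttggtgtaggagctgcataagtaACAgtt

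The table reported the spliced hosts and listed none of their snoRNAs above 0. Of the intronic snoRNAs written down for the 10 hosts, 31 names had a row within a host's locus, in 33 rows, and all 33 rows were at 0 in FPKM and in counts in both columns. A count of 0 allows up to 0.219 CPM (counts scaled to the column total) in the KD column and 0.257 in the CTRL column (3 counts of the column total). The snoRNAs of GAS5 (8 rows), SNHG1 (9 rows) and SNHG12 (4 rows) made up most of these. In the table as a whole, 99.1% of the 843 rows with a SNORA or SNORD symbol were listed at 0 in both columns, against 59.6% of all rows. The values that follow are those of the host rows, and they do not give the amount of mature snoRNA. Whether reads from introns or from snoRNA stretches add to the host rows was not tested.

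Facts of the whole table limit every value below. The column totals were 13699340 (KD) and 11680567 (CTRL) estimated counts, and 13741 genes passed the filter of a mean FPKM of at least 1. Each total lay below the mapped read pairs that the study reports for any single library, and the reason was not tested. PCBP1 had an FPKM of 184 in the KD column and 188 in the CTRL column, and PCBP2 had 531 and 342, with log2 ratios of -0.03 and 0.63. U2AF2, which encodes the splicing factor U2AF65 and was chosen after its values were seen, had an FPKM of 12.98 in the KD column and 85.3 in the CTRL column, a log2 ratio of -2.63 that only 27 of the 13741 genes, itself included, reached. U2AF65 was the target of siRNAs in other experiments of the study, for which it describes Western blots and RT-PCR and no RNA-seq libraries. A link between those siRNAs and the columns was not tested. Because of the values of PCBP1, PCBP2 and U2AF2, the columns are called the KD column and the CTRL column after their labels. Directions are directions between labels. Of 12 erythroid and hematopoietic markers of the K562 line, 8 lay under an FPKM of 1 in both columns and 6, among them GATA1 and KLF1, were at 0 in both, while the 3 that passed the filter had log2 ratios of 2.08 (HBE1, at 153 and 35.4), 1.02 (HBG2) and -0.42 (EPOR). Of 8 epithelial markers 5 had an FPKM over 5 in both columns, among them KRT18 at 2309 and 1748, KRT8 at 1505 and 819 and KRT7 at 540 and 604. The epithelial markers were not uniformly high. EPCAM was at 3.94 and 3.26, and 2 markers lay under 1 in both columns, CDH1 at 0.363 and 0.426 and 1 marker at 0 in both. Of the 6 that passed the filter 4 were higher and 2 lower in the KD column, with a median log2 ratio of 0.21 in FPKM and 0.04 in count shares. The part of these markers in the values of the hosts was not tested. Which cells and which siRNAs the columns stand for thus cannot be settled from the table, and every comparison below is between the columns as labelled. Log2 ratios of genes were also higher at higher GC content, with a Spearman rho of 0.46 across 13298 genes of 1 pair of columns, which are not independent replicates.

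All 10 hosts were expressed well above the filter in both columns, and 9 of the 10 were higher in the KD column. GAS5 was the most abundant, with an FPKM of 865 in the KD column (95% Poisson interval of its count, 840 to 891) and 717 in the CTRL column (694 to 740). In FPKM, a level per length, it exceeded 98.6% and 98.8% of the genes that passed the filter. ZFAS1, the antisense neighbour of ZNFX1, had an FPKM of 793 (772 to 814) in the KD column and 481 (465 to 499) in the CTRL column. SNHG1 had an FPKM of 500.4 (486 to 515) and 248 (238 to 259). GAS5, ZFAS1 and SNHG1 together made up 69.9% of the summed FPKM of the members in the KD column and 67.0% in the CTRL column.

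The middle of the order was held by SNHG6, SNHG8, SNHG5 and EPB41L4A-AS1, with 1 or 2 snoRNA rows each. SNHG6 had an FPKM of 229 (216 to 242) in the KD column and 254 (240.0 to 269) in the CTRL column, and it was the one member with the lower value in the KD column. SNHG8 had 214 (198 to 231) and 163 (148 to 180.4). SNHG5, the host of SNORD50A and SNORD50B, had 163 (151 to 175) and 116 (106 to 128). EPB41L4A-AS1 had 126 (117 to 136) and 75.04 (68.7 to 81.8).

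The least abundant hosts were SNHG15, SNHG7 and SNHG12. SNHG15 had an FPKM of 98.1 (91.3 to 105) in the KD column and 39.5 (35.7 to 43.6) in the CTRL column. SNHG7 had 55.6 (50.7 to 60.8) and 26.4 (23.0 to 30.2). SNHG12 had 43.8 (40.1 to 47.7) and 38.3 (34.8 to 42.1), so that its counting intervals in the columns overlapped. SNHG12 was the lowest of the 10 in the KD column and SNHG7 in the CTRL column. Neighbours in the order whose counting intervals overlapped were SNHG6 and SNHG8 in the KD column, and SNHG6 and SNHG1, and SNHG15 and SNHG12, in the CTRL column.

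**Figure D1:**
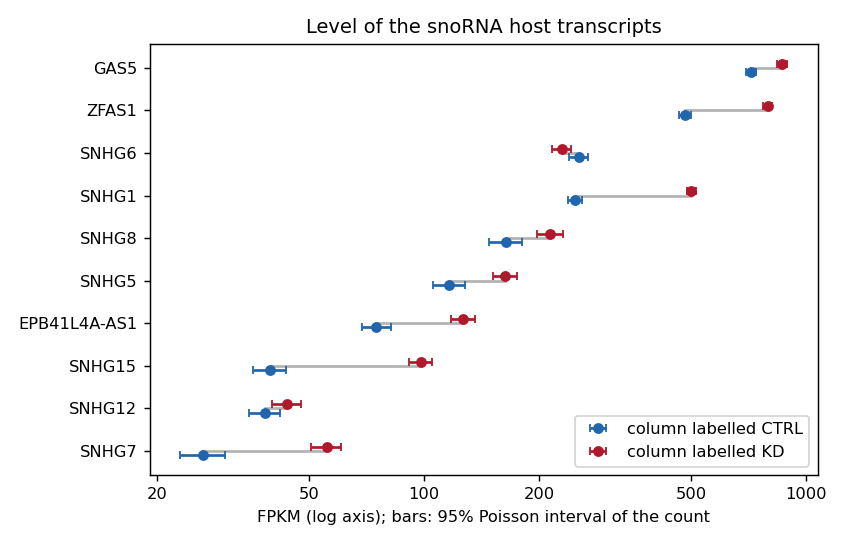
FPKM (log axis) of each snoRNA host transcript in the KD column (red) and in the CTRL column (blue), with bars for the 95% Poisson interval of the count behind each value. SNHG6 is the member whose red point lies left of its blue point, and the levels run from 26.4 for SNHG7 to 865 for GAS5.

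Ratios are log2 of FPKM + 1, KD column over CTRL column, a scale on which differences of low genes appear smaller. Their median over the 10 members was 0.60, against 0.01 over all 13741 genes. A ratio above 0 was found for 9 of the 10 members, against 51.1% of all genes. The difference was 1 or more on the log2 scale for 3 members, SNHG15, SNHG7 and SNHG1, against 8.51% of all genes, and it was -1 or less for 0 members, against 3.27% of all genes. Summed over the members, FPKM was 3088 in the KD column and 2160 in the CTRL column, a ratio of 1.43. These are counts and medians of 1 value per gene and column, and whether the 10 hosts differ from other genes beyond replicate error cannot be known from them.

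The size of the difference depended on whether the authors' FPKM or the counts were used. Counts divided by the column totals gave log2 ratios of 1 or more for 0 of the 10 members, against 4.66% of all genes. The ratio of count shares was above 0 for 8 of the 10, against 38.2% of all genes, and its median was 0.51, where the median of all genes was -0.18. The 95% exact binomial interval of the count share ratio lay above 0 for 7 members, below 0 for SNHG6, and included 0 for GAS5 and SNHG12. The interval lay above the median of all genes for 9 of the 10 members. The share of all genes with such intervals was not computed, so these interval counts describe the members only. Together the 10 hosts took 0.143% of the counts in the KD column and 0.110% in the CTRL column, a log2 ratio of 0.37 (0.34 to 0.40).

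SNHG15, the host of SNORA9, had the largest FPKM ratio of the members at 1.29, a 2.44-fold difference, and its 783 and 397 counts gave a count share ratio of 0.75 (0.57 to 0.93). The FPKM ratio of this gene exceeded its count share ratio by 0.54, the widest gap among the members. SNHG7, the host of SNORA17 and SNORA43, had an FPKM ratio of 1.05 from 476 and 218 counts, with a count share ratio of 0.90 (0.66 to 1.14). Its annotated canonical transcript has a GC content of 65.9%, the highest of the 10. Its ratio was 0.27 once a fitted trend in length and GC content was removed.

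SNHG1 had an FPKM ratio of 1.01 and a count share ratio of 0.74 (0.66 to 0.81), from 4447 and 2278 counts, and it was at 1.13 with the trend removed. Among the members, only ZFAS1 and GAS5 had more counts. ZFAS1 had an FPKM ratio of 0.72 and a count share ratio of 0.60 (0.54 to 0.67), from 5497 and 3083 counts, and 0.84 with the trend removed. Both were therefore higher in the KD column under each of these scales. EPB41L4A-AS1 had an FPKM ratio of 0.74 but a count share ratio of 0.28 (0.12 to 0.45), and 0.88 with the trend removed.

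SNHG5 and SNHG8 had like values on the FPKM and count scales. SNHG5 had an FPKM ratio of 0.48 and a count share ratio of 0.57 (0.40 to 0.75). SNHG8 had an FPKM ratio of 0.39 and a count share ratio of 0.44 (0.26 to 0.63). They were the members whose FPKM ratio lay below the count share ratio.

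For the remaining hosts the sign of the ratio turned with the scale. Over all genes the FPKM ratio exceeded the count share ratio by a median of 0.22, so a gap between these scales was not particular to the hosts. GAS5 had an FPKM ratio of 0.27, a count share ratio of -0.02 (-0.08 to 0.04) from 4508 and 3901 counts, and 0.33 with the trend removed. GAS5 is thus the most abundant member and one whose count share interval included 0. That interval lay above the count share median of all genes, -0.18. SNHG12 had an FPKM ratio of 0.19, a count share ratio of 0.04 (-0.15 to 0.22), and -0.03 with the trend removed. SNHG6 had an FPKM ratio of -0.15, a count share ratio of -0.28 (-0.40 to -0.17), and 0.05 with the trend removed.

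**Figure D2:**
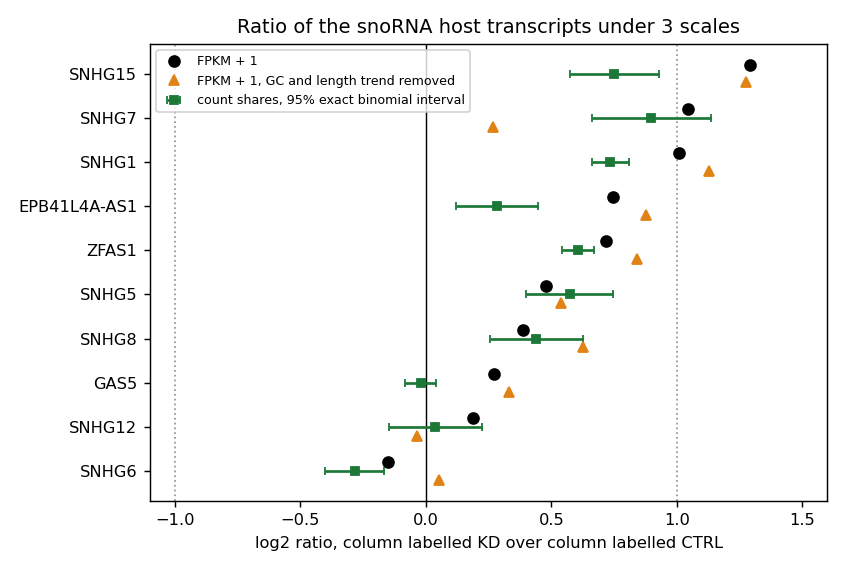
Log2 ratio of the KD column over the CTRL column for each host, from FPKM + 1 (black circles), from count shares with the 95% exact binomial interval (green squares), and from FPKM + 1 after removal of the fitted trend in length and GC content (orange triangles). Dotted lines mark -1 and 1, and no green square reaches 1, while SNHG7 moves from 1.05 to 0.27 when the trend is removed.

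The median GC content of the hosts was 46.1%, against 48.4% over all genes with a sequence. When all genes were divided into 4 groups of equal size by rising GC content, the median log2 ratios were -0.24, -0.13, 0.09 and 0.48, and the hosts fell 2, 5, 2 and 1 into these groups. With the trend removed, 9 of the 10 hosts had a ratio above 0, against 49.7% of the 13298 genes, with a median of 0.58. SNHG15 and SNHG1, 2 of the 10 hosts, were at 1 or more, against 4.83% of these genes. SNHG7, in the group of highest GC content, was no longer at 1 or more. The part of GC content in the values of the hosts was not tested. Length and GC content are those of annotated canonical transcripts, which need not be the models behind the FPKM. SNHG8 has 6166 bases there, yet its KD column FPKM of 214 exceeded its 45.8 CPM, as for a model under a kilobase. ZFAS1 (4526 bases, FPKM 793, 401 CPM) and EPB41L4A-AS1 (3511 bases, FPKM 126, 54.2 CPM) were alike. The trend-removed values of the hosts are limited by this.

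**Figure D3:**
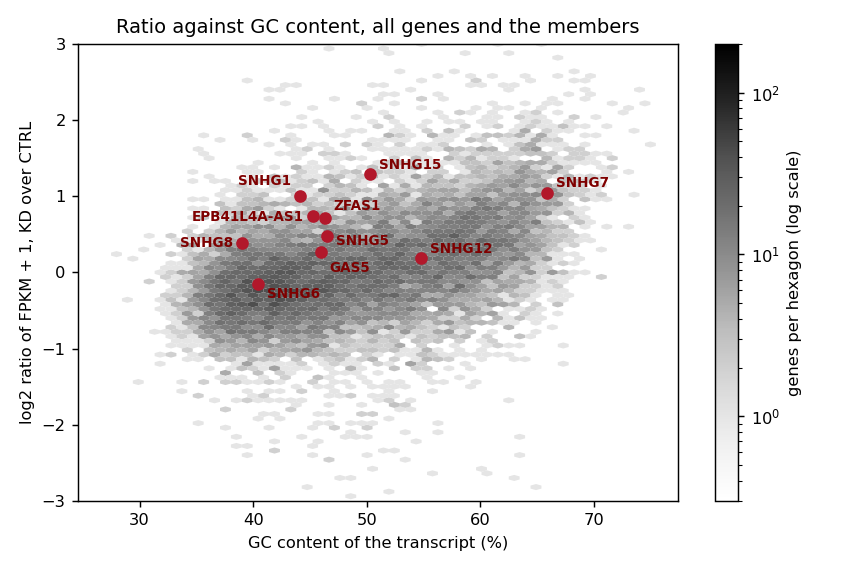
Log2 ratio of FPKM + 1 (KD column over CTRL column) against the GC content of the transcript, with all genes as hexagons shaded by the number of genes (log scale) and the 10 hosts as red points. The cloud rises to the right, and 48 genes beyond a log2 ratio of 3 in either direction lie outside the axis.

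Several hosts overlap or adjoin other genes, and the study's library kit is not described as keeping strand, so reads from overlapping genes on opposite strands cannot be told apart. The starts of 3 hosts lie within 1000 bases of the start of a gene on the other strand. SLC3A2, a heavy chain of amino acid transporters, starts 51 bases from SNHG1 and had an FPKM of 283 and 268, a log2 ratio of 0.08, with a count share ratio of 0.43 (0.36 to 0.50). ZNFX1, a helicase gene whose start lies 248 bases from that of ZFAS1, had an FPKM of 9.02 and 10.3 and a log2 ratio of -0.18. ZBTB37, a zinc-finger gene that starts 800 bases from GAS5, was near 0, with an FPKM of 0.367 and 0.346. The values of the hosts thus stood far above those of ZNFX1 and ZBTB37, and SNHG1 stood above SLC3A2 in the KD column only.

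The longest overlap, 28243 bases with SNHG5 on the same strand, is with a protein-coding gene (ENSG00000271793) for which no value was found in the table. EPB41L4A, which holds the whole of EPB41L4A-AS1 on its other strand, had an FPKM of 1.39 and 1.59. PRSS12, which overlaps SNHG8, had 4.56 and 3.85, and MCMDC2, which overlaps SNHG6, had 0.732 and 0.210. GAS5-AS1 had 0.472 and 0.952. TRNAU1AP, which shares 8 bases with SNHG12, had a higher level than SNHG12 in the KD column, at 53.1, and a lower one in the CTRL column, at 34.8. Estimated counts were not whole for 3 of the members, SNHG6, SNHG7 and EPB41L4A-AS1.

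Other noncoding snoRNA hosts, further SNHG transcripts and DANCR among them, also had higher values in the KD column. Of 11 listed, 8 had a row and 6 passed the filter, all 6 with a ratio above 0 in FPKM and 5 of the 6 in count shares. The median log2 ratio was 0.46, and 2 of the 6 were at 1 or more in FPKM, against 51.1% of all genes above 0 and 8.51% at 1 or more. In count shares 0 of the 6 were at 1 or more, where 38.2% of all genes were above 0 and 4.66% at 1 or more. With the trend removed, the median was 0.32, with DANCR at 1.09 and SNHG9 at 0.33. DANCR had an FPKM of 247 and 123, a log2 ratio of 1.01, with a count share ratio of 0.81 (0.70 to 0.92). SNHG9 had the highest FPKM ratio at 1.18, but it rests on 25 and 10 counts and its count share interval ran from -0.02 to 2.31. SNHG16 had the lowest FPKM ratio at 0.01, with an FPKM of 111 and 110.

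Protein-coding genes whose introns carry snoRNAs share the cargo but have a coding exon product, and most of those listed encode ribosomal proteins. All 37 passed the filter, and 32 were higher and 5 lower in the KD column, with a median log2 ratio of 0.39, where 51.1% of all genes were higher. A ratio of 1 or more was found for 7 of the 37, against 8.51% of all genes, and of -1 or less for 0, against 3.27%. RPL13, a ribosomal protein gene, had the highest ratio at 2.28, with an FPKM of 3605 and 739. EIF4G2, a translation factor of the eIF4G family, had the lowest at -0.66, with an FPKM of 410.2 and 648. In count shares 26 of the 37 were above 0 and 4 were at 1 or more, against 38.2% and 4.66% of all genes, with a median of 0.30. The median of the coding hosts thus lay between that of all genes and that of the 10 noncoding hosts on each scale, and the difference between the lists was not tested.

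The factors of NMD, of which several hosts are known targets, showed no common direction. Of 14 factors, all of which passed the filter, 6 were higher and 8 lower in the KD column, where 51.1% of all genes were higher. Their median log2 ratio was -0.08. UPF1, the central helicase of the pathway, had the highest ratio at 0.84, with an FPKM of 39.4 and 21.6. UPF3A, which binds the exon junction complex, had the lowest at -1.06, with an FPKM of 17.2 and 36.98 and a count share ratio of -1.45 (-1.66 to -1.25). In count shares 6 of the 14 factors were above 0, against 38.2% of all genes, and the median was -0.16, close to the -0.18 of all genes.

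Protein-coding mRNAs known as NMD targets went both ways. Of 7 listed, 4 were higher and 3 lower, where 51.1% of all genes were higher. A log2 ratio of 1 in either direction was reached by 0 of the 7. Of all genes, 8.51% were at 1 or more and 3.27% at -1 or less. ATF3, a stress transcription factor, had the highest ratio at 0.89, with an FPKM of 64.4 and 34.2. GADD45B, a stress-response gene, had the lowest at -0.44, with 10.1 and 14.0. Their median was 0.38 in FPKM and -0.28 in count shares, so that its sign depended on the scale, whereas the median of the 10 hosts was above 0 on both.

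**Figure D4:**
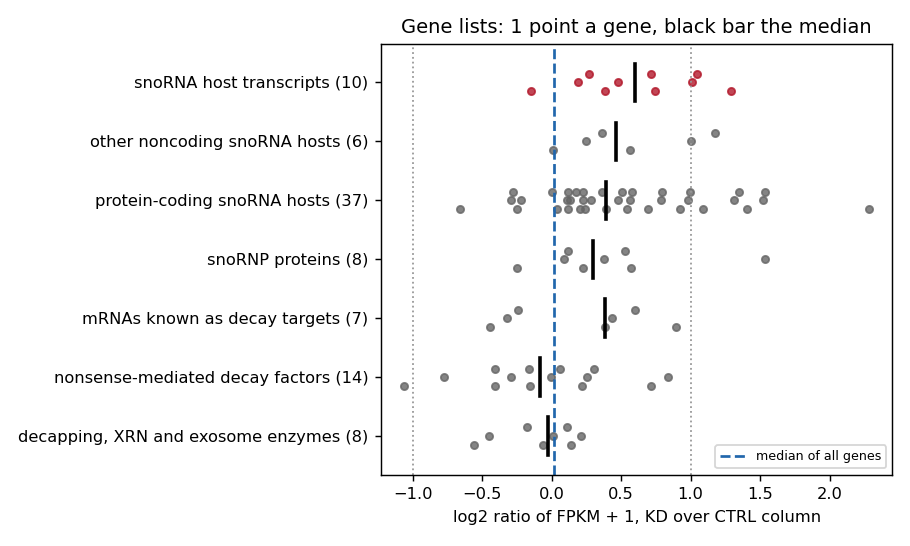
Log2 ratio of FPKM + 1 (KD column over CTRL column) of each gene in 7 lists, with the number of genes that passed the filter in brackets, a black bar for the median and a dashed line for the median of all genes. The median of the 10 hosts is 0.60 and that of the NMD factors is -0.08.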

How the data were processed

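By the labels, RNA-seq libraries came from 3 αCP1/2 siRNA pools and 3 control pools, and the authors' table gives 1 value per gene and group. The targeted genes and most erythroid and hematopoietic markers in the table go against these labels, and its origin was not settled. Per the submitters' processing notes and the study's methods, reads were mapped with TopHat 1.4.1 to hg19 and Ensembl release 65, and FPKM came from Cuffdiff 2.2.0. Whether the gene identifiers of the table are those of that Ensembl release was not checked. How the libraries were combined is not given in the sources used here. The deposited table holds FPKM and estimated counts, which need not be whole, and these were rounded for intervals. The deposited averages, extremes, fold changes, p-values and FDRs were not used.

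Log2 ratios used a pseudocount of 1 on FPKM and kept genes whose FPKM averaged 1 or more. Count shares are counts over the column total. Single genes are given without a pseudocount and with 95% exact binomial intervals, and counts and medians over all genes and over the other lists use CPM + 1. GC content and length were those of the canonical transcript (otherwise the longest) of GENCODE release 44 on GRCh37, found for 96.8% of genes. A quadratic trend in both was removed as an alternative, although these transcripts need not be the models behind the FPKM. Start sequences came from RefSeq (GRCh38.p14 table) and were located in GRCh37. A host and a snoRNA were joined by the snoRNA's own symbol and the host's locus. The genes named are the members, the lowest and highest of each list, overlapping or head-to-head neighbours and the targeted genes. The members, lists and rules were chosen with earlier results of these data known. No test was run, since each group has 1 value in the columns used. The functions were tested on artificial counts. Software was scipy 1.17.1 and numpy 2.4.6 for intervals and the trend, pandas 2.3.3 for tables and matplotlib 3.10.9 for figures, under Python 3.11.15. Splicing events were not analysed here.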

Additional observations from a re-analysis of the deposited data

How the results depend on the processing

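Across 21 results, 151 values were computed under alternatives, and 125 of them did not move past their limit and 26 did. A change of sign was counted only for main log2 ratios of at least 1 in either direction, and 0 of these changed sign. Among smaller ratios, the sign changed under some alternative for GAS5, SNHG6 and SNHG12. It also changed for the medians of NMD target mRNAs and decay enzymes. The limit was the counting interval for a gene, its median over the genes for a list, and 1.5 times for a count. With counts divided by the column totals (CPM + 1), 0 members were at a log2 ratio of 1 or more against 3, and 641 of all genes were higher and 803 lower against 1169 and 450, so the median of all genes moved to -0.18. Under it GAS5 was at -0.021, SNHG1 at 0.73, SNHG6 at -0.28, SNHG15 at 0.73, ZFAS1 at 0.60 and EPB41L4A-AS1 at 0.28, and the list medians were 0.30 for coding hosts, -0.28 for NMD target mRNAs, 0.10 for snoRNP proteins and -0.41 for decay enzymes. With the GC and length trend removed, 642 genes were higher, SNHG1 was at 1.13, SNHG6 at 0.053, SNHG7 at 0.27, SNHG8 at 0.63, SNHG12 at -0.033, ZFAS1 at 0.84 and the snoRNP median at 0.21. With a 1.5-fold limit, 5 members and 2689 genes were higher and 1709 genes lower, because the limit is looser. A pseudocount of 0.1 gave 791 lower genes, and an FPKM over 5 in a group gave 292, where fewer genes were counted. The other causes were not tested. Centring, no filter (genes with over 3 counts in a column) and summing rows moved no value past its limit, although centring left 2 members at 1 or more. No paired analysis was possible because each group has 1 value per gene, and leaving out libraries was not run for the same reason. Among the members, the counting interval of the count share ratio included 0 for GAS5 and SNHG12 only. For GAS5 this was a narrow interval, -0.08 to 0.04, around a ratio of -0.02, where the median of all genes was -0.18.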

Other observations

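The genes of proteins that assemble with snoRNAs were mostly a little higher in FPKM in the KD column. Of 8 core snoRNP proteins, 7 had a log2 ratio of FPKM above 0 and 1 was below, with a median of 0.30, where 51.1% of all genes were above 0. NHP2, a core protein of box H/ACA particles, had the highest ratio at 1.53, with an FPKM of 295 in the KD column and 101 in the CTRL column, and its count share ratio was 1.31 (95% exact binomial interval, 1.20 to 1.43). NOP58, a box C/D protein that itself hosts snoRNAs, had the lowest ratio at -0.25. In count shares 4 of the 8 were above 0, against 38.2% of all genes, and the median was 0.10.

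Enzymes of RNA decay other than NMD factors (decapping, XRN and exosome-linked genes) were higher for 4 and lower for 4 of 8 genes. Their median log2 ratio was -0.03, and 51.1% of all genes were higher. XRN1, the cytoplasmic 5′ to 3′ exonuclease, had the lowest ratio at -0.56, from an FPKM of 1.82 and 3.14. EXOSC3, an exosome subunit, had the highest at 0.21 in FPKM, and its count share ratio was -0.34 (-0.57 to -0.12). In count shares 1 of the 8 was above 0, against 38.2% of all genes, and the median was -0.41, where that of all genes was -0.18.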
